A study of Mus musculus with 8 samples.

Results

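Cadherins and protocadherins were chosen by gene symbol: every symbol made of Cdh and a number, or starting with Pcdh, was taken, and Cdh5, the endothelial cadherin, was left out. This gave 93 of the 23278 genes in the deposited tables. They comprised 5 type I cadherins, 12 type II cadherins, 5 other Cdh genes, 14 alpha, 22 beta and 22 gamma protocadherins of the clustered arrays, 1 gene model named Pcdha4-g, 4 delta-1 and 5 delta-2 protocadherins, and 3 other Pcdh genes. The study cut cells by laser from frozen sections of the lumbar cord, taken from FVB/N pups on postnatal day 1, and sequenced 8 libraries, 2 for each of 4 groups: SMA ventral horn motor neurons, WT ventral horn motor neurons, SMA white matter and WT white matter. SMA mice had the genotype SMN2+/+;SMNΔ7+/+;Smn-/-, in which human SMN2 and SMNΔ7 transgenes stand in for the lost mouse gene, and the comparison asks how this model of spinal muscular atrophy differs from WT before symptoms. WT mice are labelled only as such, and whether they carried a transgene is not stated.

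Cadherins are calcium-dependent adhesion proteins of the cell surface. Classical cadherins (types I and II) bind the same or related cadherins on neighbouring cells and are tied to actin through catenins, and in chick embryos combinations of type II cadherins help motor neurons settle into pools. Clustered protocadherins are made from gene arrays in which each variable first exon has its own promoter, and the alpha and gamma isoforms are completed by constant exons shared within the array, so that each neuron carries its own set of isoforms by which it recognises its own branches.

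Values are RPKM (reads per kilobase of gene model per M reads) as deposited, so levels can be compared between genes per length, except for isoforms that share exons. The denominators worked out from the values were 77.5 to 102.8 M reads per library, and reads on genes were 45.1 to 68.2 M. Mouse Smn1, the gene removed in SMA mice, was at 0 in all 4 SMA libraries and at 2.93 to 14.3 RPKM in the WT ones. The 9 motor neuron markers summed to 1754 to 2553 RPKM in motor neuron captures and 18.1 to 56.5 RPKM in white matter, and 8 oligodendrocyte markers to 40.4 to 114 RPKM in motor neuron captures and 1787 to 4605 RPKM in white matter. Astrocyte markers were present in both captures (680 to 826 RPKM in motor neurons, 1032 to 1522 RPKM in white matter). The 9 interneuron markers summed to 215.5 to 374.7 RPKM in motor neuron captures and 8.21 to 33.1 RPKM in white matter. The contrast of the regions therefore does not tell motor neurons from other neurons. The SMA motor neuron replicates correlated at 0.889 on the log2 scale, against 0.936 to 0.963 for the replicate pairs of the other groups. This does not show which library of the pair differed. Replicate 2 had 33.4% of its summed RPKM in the ribosomal RNA gene Rn45s, the highest share of all libraries, and replicate 1 had 22.4%. Replicate 1 of every group had Xist at 12.6 RPKM or more and replicate 2 at 0.0581 RPKM or less, so the replicates differed in sex in each group.

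Of the 93 members, 83 reached 1 RPKM in at least 2 libraries and were tested. The other 10 were low or absent: Cdh26 was at 0 in every library, and Cdh1, Cdh3, Cdh15, Cdh16, Cdh17, Cdh19, Pcdh12 and 2 beta members stayed under the filter. E-cadherin (Cdh1), the epithelial type I cadherin, was at 0 in all 4 motor neuron libraries and at 0.0756 to 0.3 RPKM in white matter. By the mean over the 8 libraries, Pcdhgc3 was highest at 95.2 RPKM, and the next 9 (Pcdhga10, Pcdhgb4, Pcdhgb5, Pcdhgb1, Pcdhgb7, Pcdhga2, Pcdhga5, Pcdhga4 and Pcdhga7) were gamma isoforms at 66.0 to 67.1 RPKM. Gamma isoforms share constant exons, and how reads on these were counted is not stated. Their values may hold the same reads, so their ranks do not give the level of each isoform. The gene model Pcdha4-g, which is set aside with the arrays but counted as neither alpha nor gamma, averaged 54.5 RPKM. Outside the arrays and this model, the T-cadherin gene Cdh13, whose product is held in the membrane by a lipid anchor, led with 63.8 RPKM, ahead of Pcdh7 at 39.5 RPKM and N-cadherin (Cdh2) at 36.6 RPKM.

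Motor neuron captures held more RNA of several type II cadherins and of the alpha protocadherin array than the white matter beside them. Values of the gamma array lay lower in motor neurons. Members of an array share exons, so this describes each array and not each isoform. In SMA, 25 of the 83 tested members were higher and 23 lower in motor neurons than in white matter (limma, Benjamini-Hochberg adjusted p under 0.05 over all genes tested), where 13.6% of the 13948 tested genes were higher and 17.2% lower, 30.8% in all. In WT, 28 members were higher and 2 lower, where 18.6% of all tested genes were higher and 9.85% lower, 28.4% in all. Median-of-ratios scaling gave 28 members higher and 3 lower in SMA, beside 2351 and 2062 of all tested genes. Quantile normalization gave 28 members higher and 25 lower in WT, beside 2238 and 2092 of all tested genes. The median log2 difference of the 83 members in SMA was 0.36, beside -0.24 over all tested genes. It was 0.31 without SMA white matter replicate 1, beside -0.18 over all genes. Without SMA motor neuron replicate 1 it was 0.07, beside -0.40, and without SMA motor neuron replicate 2 it was 0.51, beside -0.02. Calls of lower members in SMA depended on single libraries, as given below for the gamma members. At an unadjusted p under 0.05 stood 55 members in SMA (43.1% of all tested genes) and 36 in WT (40.1%). Both motor neuron libraries lay above both white matter libraries for 37 members and below them for 30 in SMA, where 26.7% and 37.2% of all tested genes did so, and for 51 and 26 in WT, where 39% and 31% did so. The alpha members overlap in their constant exons and had close values in each library, as did most gamma members, so these calls cannot be taken as independent. Among the 26 tested members outside the arrays and Pcdha4-g, 10 were higher and 2 lower in SMA, and 12 were higher and 1 lower in WT. The median log2 difference of these 26 was 0.91 in SMA and 1.01 in WT, beside -0.24 and 0.08 over all tested genes. The SMA median was 0.40 without SMA motor neuron replicate 1 and 1.19 without replicate 2. Of these 26, 9 were higher in motor neurons in both genotypes, and together with the 14 alpha members they kept that call in both genotypes under each of 18 alternatives. The share of all tested genes that met these joint conditions was not computed. In captures of many cells, more cells of a type and more RNA per cell cannot be told apart.

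Type II cadherins gave the largest differences outside the arrays, with 5 of 11 tested members higher in motor neurons and 1 lower in SMA, and 7 higher in WT (limma). Over all tested genes 13.6% were higher and 17.2% lower in SMA, and 18.6% were higher in WT. Cdh12 was at 11.4 and 7.02 RPKM in SMA motor neurons against 1.37 and 0.440 RPKM in SMA white matter. In WT it was at 16.6 and 15.1 RPKM in motor neurons against 0.900 and 0.273 RPKM in white matter. All 4 motor neuron libraries lay above all 4 white matter libraries, and the log2 difference, taken here and below on log2(RPKM + 1), was 2.43 ± 0.40 in SMA (SE, adjusted p = 0.00213) and 3.44 ± 0.40 in WT (adjusted p = 0.000291). This scale understates the change of genes near 1 RPKM. Cdh18 had 29.2 and 12.9 RPKM in SMA motor neurons against 2.35 and 1.81 RPKM in SMA white matter, and 18.2 and 18.7 RPKM in WT motor neurons against 1.97 and 1.28 RPKM in WT white matter. Its log2 difference was 2.74 ± 0.40 in SMA (adjusted p = 0.00118) and 2.90 ± 0.40 in WT (adjusted p = 0.000698), although the SMA motor neuron replicates differed from each other more than the WT ones. Cdh22 had 14.1 and 13.7 RPKM in SMA motor neurons against 2.47 and 1.97 RPKM in SMA white matter, and 14.3 and 15.7 RPKM in WT motor neurons against 0.639 and 0.862 RPKM in WT white matter. The motor neuron values of Cdh22 were close across genotypes, and its log2 difference was 2.22 ± 0.31 in SMA (adjusted p = 0.00092) and 3.2 ± 0.31 in WT (adjusted p = 0.000108).

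Cdh24 and Cdh6 completed the type II members that were higher in motor neurons in both genotypes. Cdh24 averaged 23.5 ± 4.88 RPKM in SMA motor neurons and 4.73 ± 1.91 RPKM in SMA white matter (SD, n = 2 each), a log2 difference of 2.12 ± 0.34, and its WT difference was 1.97 ± 0.34. Cdh6, the most abundant of these 5, averaged 31.4 ± 6.45 RPKM in SMA motor neurons and 9.05 ± 0.00535 RPKM in SMA white matter, and 34.0 ± 0.989 RPKM in WT motor neurons and 5.95 ± 0.103 RPKM in WT white matter. In both genotypes the motor neuron libraries of Cdh6 and Cdh24 lay above the white matter ones. Cdh8 and Cdh9 passed in WT alone, with log2 differences of 2.0 ± 0.50 (adjusted p = 0.0149) and 1.67 ± 0.53 (adjusted p = 0.0403), and had 1.42 ± 0.50 and 0.98 ± 0.53 in SMA. The SMA libraries of Cdh8 were far apart, at 23.9 and 7.30 RPKM in motor neurons against 5.57 and 3.40 RPKM in white matter. A test of the difference between genotypes gave an adjusted p of at least 0.883 for every tested member, so no regional difference was shown to depend on genotype. Both calls were lost with no filter on low values (adjusted p = 0.0531 for Cdh8 and 0.11 for Cdh9). Cdh8 also lost it without either WT motor neuron library or WT white matter replicate 2 (adjusted p of 0.0625 to 0.112), and Cdh9 without any 1 of the 4 WT libraries (0.0686 to 0.221), with voom (0.0512), with a pseudocount of 5 RPKM (0.051) and with the replicate block (0.0568).

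Cdh20, known in chick as MN-cadherin for its place in motor pools, ran the other way from the other called type II members. It was at 6.34 and 4.07 RPKM in SMA motor neurons against 20.2 and 13.9 RPKM in SMA white matter, and at 10.7 and 8.87 RPKM in WT motor neurons against 17.2 and 15.3 RPKM in WT white matter. The motor neuron libraries were below the white matter libraries in both genotypes. Its log2 difference was -1.54 ± 0.32 in SMA (limma, adjusted p = 0.0066), which passed, and -0.68 ± 0.32 in WT (adjusted p = 0.145), which did not. Without SMA white matter replicate 1 the SMA call of Cdh20 was lost, at an adjusted p of 0.0636. Cdh11, Cdh10 and Cdh7 did not pass in either genotype. Cdh11 was at 18 to 27.3 RPKM in motor neuron libraries and 23.5 to 27.8 RPKM in white matter. Its 95% interval of the log2 difference was -0.97 to 0.16 in SMA and -0.49 to 0.64 in WT. Cdh10 was at 11.4 to 24.6 RPKM in motor neuron libraries and 7.97 to 10.3 RPKM in white matter, without overlap.

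The type I and remaining Cdh genes were mixed. N-cadherin (Cdh2), the main type I cadherin of neural tissue, was at 35.5 and 25.6 RPKM in SMA motor neurons against 46.7 and 50.3 RPKM in SMA white matter, and at 35.1 and 34.9 RPKM in WT motor neurons against 29.7 and 35.2 RPKM in WT white matter. Its groups overlapped in WT, and its log2 difference did not pass in SMA (-0.67 ± 0.25, adjusted p = 0.0718) or in WT (0.11 ± 0.25, adjusted p = 0.79). R-cadherin (Cdh4), a type I relative, passed in WT at 1.44 ± 0.43 (adjusted p = 0.0319), with 10.1 and 5.07 RPKM in WT motor neurons against 2.67 and 1.48 RPKM in WT white matter, and lost the call with no filter (adjusted p = 0.0779) and without WT motor neuron replicate 1, either WT white matter library or either SMA white matter library (0.0503 to 0.232). Cdh13 was at 87.7 and 97.8 RPKM in SMA motor neurons against 38.7 and 43.8 RPKM in SMA white matter, and at 98.1 and 96.2 RPKM in WT motor neurons against 25.0 and 22.8 RPKM in WT white matter. Its 4 motor neuron libraries were thus close to one another, and its log2 difference was 1.15 ± 0.22 in SMA (adjusted p = 0.00438) and 1.98 ± 0.22 in WT (adjusted p = 0.000225).

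**Figure D1:**
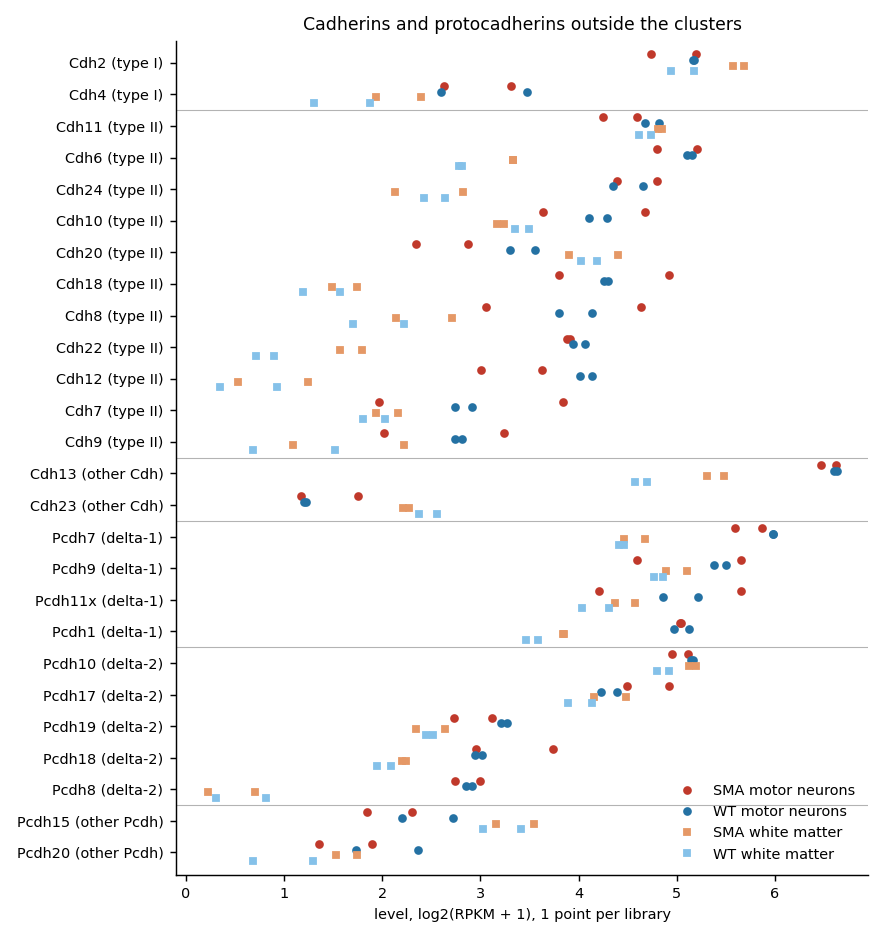
Levels of the 26 tested members outside the clustered arrays on a log2(RPKM + 1) axis, 1 point per library, with circles for motor neurons, squares for white matter, and SMA above WT within each region. Cdh13 has the highest motor neuron points. Several genes, among them Cdh12, Cdh18, Cdh22 and Pcdh8, have all motor neuron points right of all white matter points.

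Among delta-1 protocadherins, which share a cytoplasmic motif that binds protein phosphatase 1, 2 of 4 members were higher in motor neurons in each genotype, Pcdh7 and Pcdh1. Of all tested genes, 13.6% were higher in SMA and 18.6% in WT. Pcdh7 was at 57.3 and 47.3 RPKM in SMA motor neurons against 24.6 and 21.1 RPKM in SMA white matter, and at 62.3 and 62.3 RPKM in WT motor neurons against 20.3 and 21.0 RPKM in WT white matter. Pcdh1 was at 32.0 and 31.7 RPKM in SMA motor neurons against 13.4 and 13.4 RPKM in SMA white matter, and at 33.8 and 30.4 RPKM in WT motor neurons against 11 and 10.04 RPKM in WT white matter. Neither gene overlapped between regions. Their log2 differences were 1.16 ± 0.24 and 1.19 ± 0.25 in SMA and 1.55 ± 0.24 and 1.53 ± 0.25 in WT. Pcdh9 and the X-linked Pcdh11x did not pass. Pcdh11x was at 49.4 and 17.5 RPKM in SMA motor neurons against 22.9 and 19.6 RPKM in SMA white matter, and at 36.3 and 28.0 RPKM in WT motor neurons against 15.4 and 18.9 RPKM in WT white matter, so its groups overlapped in SMA and not in WT.

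Among delta-2 protocadherins, several of which recruit the WAVE actin regulators, Pcdh8 passed in both genotypes and Pcdh18 in SMA alone. Pcdh8, whose product in rat neurons draws N-cadherin in from the synaptic surface, was at 7.0 and 5.68 RPKM in SMA motor neurons against 0.629 and 0.165 RPKM in SMA white matter, and at 6.54 and 6.24 RPKM in WT motor neurons against 0.756 and 0.234 RPKM in WT white matter. These values rested on 1736 to 2211 reads per motor neuron library and 63 to 244 reads per white matter library. Its log2 difference was 2.41 ± 0.36 in SMA (adjusted p = 0.00133) and 2.33 ± 0.36 in WT (adjusted p = 0.0013). Pcdh18 had 1.12 ± 0.35 in SMA (adjusted p = 0.036), a call lost with no filter (adjusted p = 0.0579), in a fit of the SMA libraries alone (0.123) or without any 1 library but SMA motor neuron replicate 2 (0.0595 to 0.139), and 0.96 ± 0.35 in WT (adjusted p = 0.066). Pcdh10, one of the more abundant members at 26.9 to 35.6 RPKM over the 8 libraries, did not pass, with 95% intervals of -0.64 to 0.40 in SMA and -0.23 to 0.81 in WT. The X-linked Pcdh19, mutated in a human epilepsy, was at 7.71 and 5.65 RPKM in SMA motor neurons against 5.22 and 4.09 RPKM in SMA white matter, and at 8.26 and 8.64 RPKM in WT motor neurons against 4.46 and 4.72 RPKM in WT white matter. It lay higher in motor neurons in both genotypes without passing the test (adjusted p = 0.314 in SMA and 0.101 in WT).

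Cdh23 and Pcdh15, which form the tip links of hair cells in the inner ear, were both lower in motor neurons than in white matter, each passing in 1 genotype. Cdh23 was at 2.37 and 1.25 RPKM in SMA motor neurons against 3.63 and 3.84 RPKM in SMA white matter, and at 1.33 and 1.30 RPKM in WT motor neurons against 4.87 and 4.19 RPKM in WT white matter. Pcdh15 was at 2.60 and 3.92 RPKM in SMA motor neurons against 7.94 and 10.7 RPKM in SMA white matter, and at 5.61 and 3.59 RPKM in WT motor neurons against 9.67 and 7.15 RPKM in WT white matter. Motor neuron and white matter libraries of either gene did not overlap in either genotype. Cdh23 passed in WT (-1.25 ± 0.34, adjusted p = 0.0229) and not in SMA (-0.78 ± 0.34, adjusted p = 0.112), and Pcdh15 passed in SMA (-1.28 ± 0.36, adjusted p = 0.0232) and not in WT (-0.76 ± 0.36, adjusted p = 0.141). The SMA call of Pcdh15 was lost under quantile normalization (adjusted p = 0.0567), in a fit restricted to the SMA libraries (adjusted p = 0.08) and without either SMA white matter library (0.0661 and 0.144). Cdh23 lost its WT call without any 1 of the 4 WT libraries (adjusted p of 0.0904 to 0.115).

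**Figure D2:**
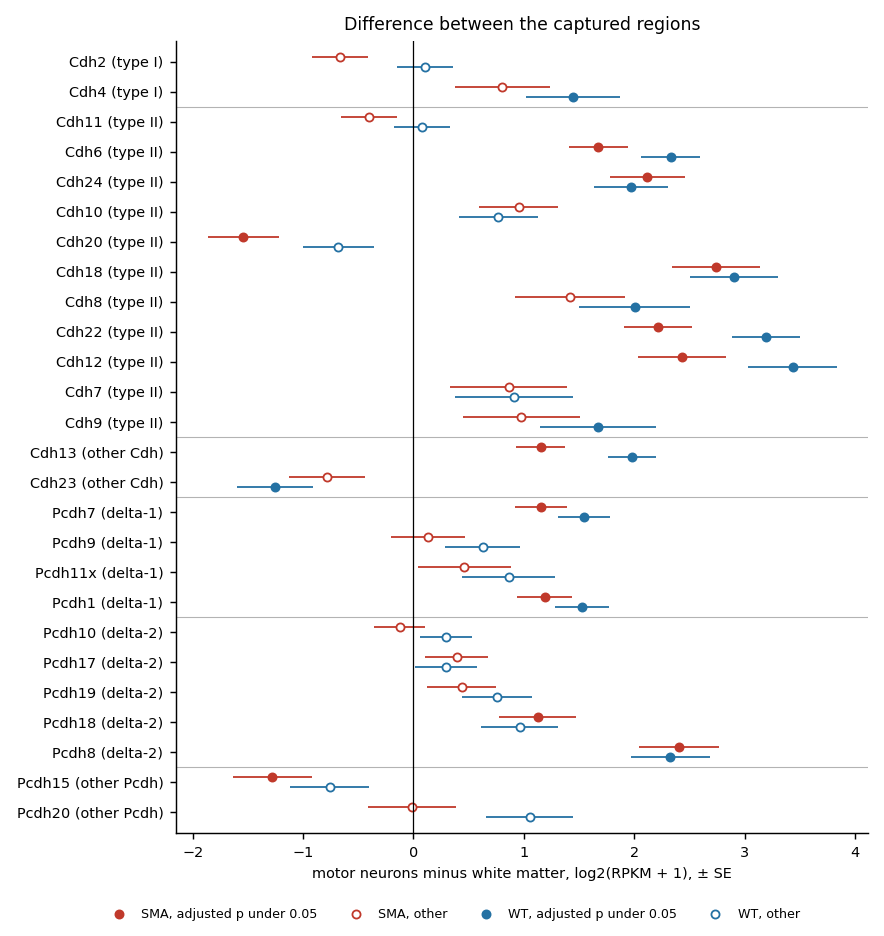
Motor neuron minus white matter difference on log2(RPKM + 1) for the same 26 members, SMA above WT, with bars of 1 SE and filled points where the adjusted p of limma was under 0.05. The filled points right of 0 in both genotypes belong to 9 genes: Cdh6, Cdh12, Cdh13, Cdh18, Cdh22, Cdh24, Pcdh1, Pcdh7 and Pcdh8.

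The RefSeq promoter table (build GRCm38.p6, not the mm9 of the deposited files) held 25 promoters for 22 of the members. The 250 bases before the start are shown for the 2 members with the highest and the 2 with the lowest mean regional difference among those with an entry, since these mark the ends of the regional pattern. The sequences run 5′ to 3′ on the plus strand, and capitals mark the GC box (GGGCGG), the CCAAT box and the TATA box (TATAAA) on either strand. They are Cdh12 at chr15:21111202-21111451, Cdh18 at chr15:23036213-23036462, Cdh20 at chr1:104768270-104768519 and Pcdh15 at chr10:73821617-73821866.
Cdh12: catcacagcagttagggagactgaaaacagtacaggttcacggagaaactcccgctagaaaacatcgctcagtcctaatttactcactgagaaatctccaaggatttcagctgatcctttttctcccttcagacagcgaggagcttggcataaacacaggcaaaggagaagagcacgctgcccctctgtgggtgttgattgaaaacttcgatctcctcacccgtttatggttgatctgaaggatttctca
Cdh18: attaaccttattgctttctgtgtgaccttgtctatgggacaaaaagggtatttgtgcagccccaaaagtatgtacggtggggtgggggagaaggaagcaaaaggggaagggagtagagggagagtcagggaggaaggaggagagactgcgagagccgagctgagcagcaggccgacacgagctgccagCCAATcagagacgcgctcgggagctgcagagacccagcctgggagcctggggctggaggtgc
Cdh20: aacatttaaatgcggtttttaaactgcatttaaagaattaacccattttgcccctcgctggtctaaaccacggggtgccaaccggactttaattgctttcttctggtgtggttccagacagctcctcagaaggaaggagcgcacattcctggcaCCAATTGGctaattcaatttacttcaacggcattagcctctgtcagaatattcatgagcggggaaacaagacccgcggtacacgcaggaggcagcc
Pcdh15: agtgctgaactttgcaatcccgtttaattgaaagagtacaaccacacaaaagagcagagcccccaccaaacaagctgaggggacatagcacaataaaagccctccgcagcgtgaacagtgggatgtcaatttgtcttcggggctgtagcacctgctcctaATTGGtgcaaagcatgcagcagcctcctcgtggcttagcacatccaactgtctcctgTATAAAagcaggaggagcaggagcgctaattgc
The Cdh12 promoter, of a gene higher in motor neurons, held none of the 3 motifs. CCAAT stood once in Cdh18 and, as 2 overlapping matches on opposite strands, in Cdh20. Pcdh15 held 1 CCAAT match and 1 TATAAA match. Among the 22 members, 14 had CCAAT on either strand (63.6%, beside 33.8% of all 32851 promoters), 9 had GGGCGG (40.9% beside 32.7%) and 2 had TATAAA (9.09% beside 12.4%). A member counted if any of its promoters matched, whereas the shares over all count each promoter, so the units are unlike. The members' promoters held a median of 10 CG pairs, beside 6 over all promoters. A letter match shows no binding.

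The values of the 14 alpha protocadherins were higher in motor neurons in both genotypes, which describes the array and not each isoform. The median over the alpha members was 38.5 and 19.3 RPKM in SMA motor neurons against 4.08 and 2.65 RPKM in SMA white matter. In WT it was 30.3 and 25.4 RPKM in motor neurons against 2.75 and 3.01 RPKM in white matter. No library of one region came near the other, and the SMA motor neuron libraries differed most from each other. All 14 alpha members passed in SMA and in WT (limma), with log2 differences of 2.66 to 2.92 in SMA and 2.87 to 2.97 in WT. In the GENCODE annotation, which held 13 of them, the alpha members share 3 constant exons with 2860 bases in all. Their gene models of 5206 to 5422 bases, by the lengths worked out from the deposited values, hold 2346 to 2562 bases besides. How reads on shared exons were counted is not stated. The 13 alpha members other than Pcdhac2 lay at most 19.1% above the lowest of them in recovered reads in any library, so the 14 calls were not counted as separate observations.

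**Figure D3:**
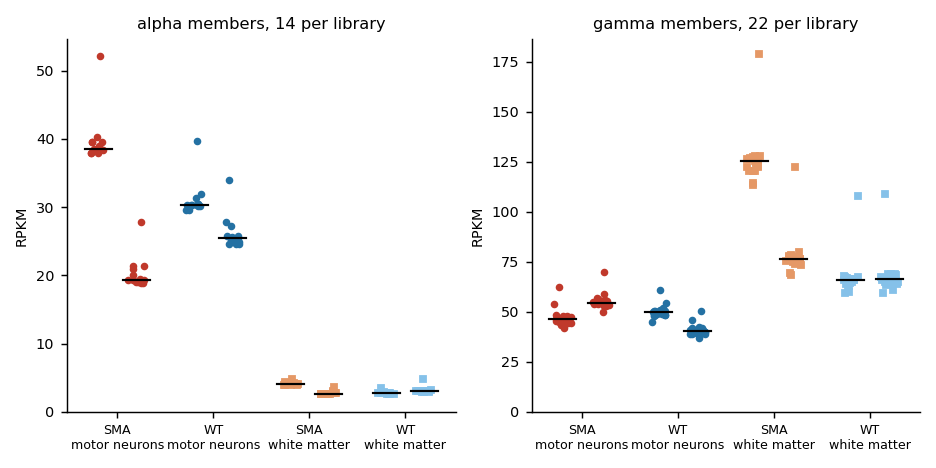
RPKM of the 14 alpha members (left) and 22 gamma members (right) in each library, with replicate 1 left of replicate 2, SMA motor neurons first, and black lines at the median. Alpha medians sit at 19.3 to 38.5 RPKM in motor neurons and at 2.65 to 4.08 RPKM in white matter, whereas gamma medians sit at 40.4 to 54.5 RPKM in motor neurons and at 65.9 to 125 RPKM in white matter.

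The gamma members ran opposite to the alpha members. Their median was 46.6 and 54.5 RPKM in SMA motor neurons against 125 and 76.4 RPKM in SMA white matter, and 49.7 and 40.4 RPKM in WT motor neurons against 65.9 and 66.5 RPKM in WT white matter. All 22 gamma members lay lower in motor neurons in both genotypes without overlap between libraries, where 37.2% of all tested genes did so in SMA and 31% in WT. In SMA 21 of the 22 passed, with a median log2 difference of -0.95, and in WT 1 passed, Pcdhgc3, at -0.95 ± 0.25 (adjusted p = 0.0172), with a median of -0.55. The gamma isoforms share 3 constant exons with 2119 bases in the GENCODE annotation, so the 21 calls were not counted as separate observations. Without any 1 of the 4 WT libraries the WT call of Pcdhgc3 was lost (adjusted p of 0.0619 to 0.136). The 21 SMA calls came down to 1 with median-of-ratios scaling, to 3 in a fit without the trend, to 1 in a fit of the SMA libraries alone, to 7 with no filter, to 8 without either WT motor neuron library, to 3 without SMA motor neuron replicate 1 and to 0 without SMA white matter replicate 1, and quantile normalization gave 22 in each genotype. Pcdha4-g was at 41.2 and 43.9 RPKM in SMA motor neurons against 97.1 and 56.3 RPKM in SMA white matter, and its differences of -0.78 ± 0.28 in SMA and -0.46 ± 0.28 in WT did not pass.

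Within the arrays, isoforms were told apart by the reads each member had above the lowest member of its array in the same library, as a percentage of that lowest member. This measure was chosen after the values were seen, gives a lower bound on the reads outside the constant exons only if every isoform was credited with all constant-exon reads, which is not stated, and does not depend on scaling between libraries. The stochastically chosen alpha and gamma isoforms stood at 0 to 19.1% above the lowest member, with library medians of 1.66 to 6.36%. Of the 5 C-type isoforms, which are expressed without this random choice, Pcdhac1 and Pcdhgc5 stayed within that range, while Pcdhac2 and Pcdhgc3 in all libraries and Pcdhgc4 in motor neurons lay above it. Pcdhgc4, the isoform that mice need for survival of their spinal interneurons, stood at 31.7 and 20.9% in SMA motor neurons against 1.2 and 1.75% in SMA white matter, and at 22.7 and 27% in WT motor neurons against 1.69 and 3.08% in WT white matter. Pcdhgc3, which was the highest member, stood at 41.4 and 33.5% in SMA motor neurons against 48.9 and 67.5% in SMA white matter, and at 28.8 and 30.3% in WT motor neurons against 72.1 and 71.5% in WT white matter. All 4 motor neuron libraries were above all 4 white matter libraries for Pcdhgc4 and below them for Pcdhgc3.

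Over both genotypes Pcdhgc4 averaged 25.6 ± 4.82% in motor neurons and 1.93 ± 0.805% in white matter (SD, n = 4 each), and Pcdhgc3 averaged 33.5 ± 5.65% and 65.0 ± 10.9%. Each gave p = 0.0286 in a two-sided exact permutation test of 4 against 4 libraries, the smallest p this design can give, and 0.0714 after adjustment over the 5 C-type isoforms. Pcdhac2, the alpha isoform that serotonergic axons of mice use to space themselves, stood at 38.4 to 53.3% in motor neurons and 24.3 to 67.1% in white matter, and its regions overlapped (exact permutation p = 1). Pcdhac1 and Pcdhgc5 stayed at 0 to 7.41% in all libraries. As reads above the lowest member per M reads, Pcdhac2 was at 52.5 to 83.8 in motor neurons and 5.02 to 10.4 in white matter, and Pcdhgc4 at 48.9 to 65.3 and 4.97 to 9.16. Pcdhgc3 was at 54.8 to 85.4 reads per M in motor neurons and 212 to 276 in white matter. On that scale Pcdhac1, Pcdhac2, Pcdhgc3 and Pcdhgc4 each gave an exact permutation p of 0.0286, or 0.0357 after adjustment over the 5. This scale also carries the level of the whole array. Pcdhac1 was at 1.88 to 5.56 in motor neurons and 0 to 1.15 in white matter. The stochastically chosen Pcdha3 was at 11.2 to 16.3 and 0.434 to 1.05. The p-values of Pcdhac1 and Pcdhac2 on this scale therefore cannot tell these isoforms from their array. As a percentage Pcdhac1 gave an exact permutation p of 0.486. As deposited, however, Pcdhgc4 had a lower RPKM in motor neurons (45.8 to 59.0) than in white matter (59.5 to 114).

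**Figure D4:**
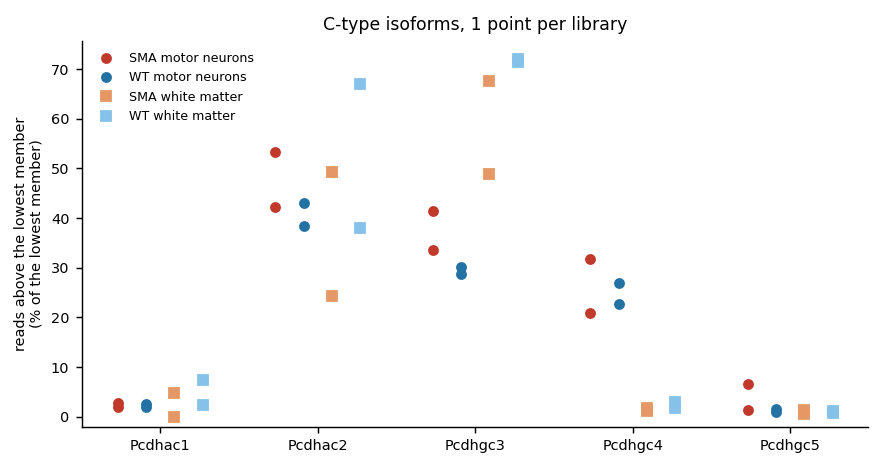
Reads above the lowest member of the array, in percent of that member, for the 5 C-type isoforms, 1 point per library, with SMA motor neurons leftmost and WT white matter rightmost for each isoform. Pcdhgc4 lies at 20.9 to 31.7% in motor neurons and at 1.2 to 3.08% in white matter, whereas Pcdhgc3 lies at 28.8 to 41.4% and at 48.9 to 72.1%.

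The beta protocadherins, whose genes each consist of a single coding exon and share no constant exon, were low. The 22 members summed to 33.4 to 54.2 RPKM in motor neuron libraries and 18.9 to 32.7 RPKM in white matter. Of 20 tested, 1 passed as higher in motor neurons in SMA and 2 in WT, a smaller share than the 13.6% and 18.6% of all tested genes. The median log2 differences of the 20 were 0.35 and 0.73, however, beside -0.24 and 0.08 over all tested genes. Both motor neuron libraries lay above both white matter libraries for 8 of the 20 in SMA and 16 in WT. They lay below for 1 and 0. Over all tested genes 26.7% and 39% lay above, and 37.2% and 31% below. Pcdhb2 passed in both genotypes: it was at 6.67 and 4.25 RPKM in SMA motor neurons against 1.25 and 2.18 RPKM in SMA white matter, and at 3.71 and 2.66 RPKM in WT motor neurons against 0.721 and 0.328 RPKM in WT white matter. Its log2 difference was 1.25 ± 0.38 in SMA (adjusted p = 0.0327) and 1.46 ± 0.38 in WT (adjusted p = 0.0177). The SMA call of Pcdhb2 was lost with a pseudocount of 0.1 RPKM (adjusted p = 0.0637), with no filter (0.0638) and in a fit of the SMA libraries alone (0.101), and without any 1 library but SMA motor neuron replicate 2 (0.0503 to 0.183), and its WT call without any 1 WT library (0.0506 to 0.129). Pcdhb22 passed in WT at 1.17 ± 0.36 (adjusted p = 0.0373) and lost the call with no filter (0.0694) and without any 1 library other than the SMA motor neuron ones (0.0553 to 0.171). Beta members are close in sequence, and the sources used here do not give the treatment of reads with several matches.

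Lists of genes that work with cadherins are given by their counts, to be read against the shares over all tested genes, 13.6% higher and 17.2% lower in SMA and 18.6% and 9.85% in WT. Of 11 tested catenins and relatives, 1 was higher and 6 lower in motor neurons in SMA, and 2 were higher and 4 lower in WT. Alpha-E-catenin (Ctnna1), which ties classical cadherins to actin, averaged 2.86 ± 0.182 RPKM in SMA motor neurons and 20.6 ± 1.99 RPKM in SMA white matter, and 2.85 ± 0.711 RPKM in WT motor neurons and 13.3 ± 0.984 RPKM in WT white matter (SD, n = 2 each). The neuronal alpha-N-catenin (Ctnna2) was higher in WT motor neurons, at 25.6 ± 2.22 RPKM against 7.34 ± 0.534 RPKM in WT white matter, and beta-catenin (Ctnnb1) was lower in SMA motor neurons, at 55.1 ± 15.4 RPKM against 109.5 ± 21.7 RPKM in SMA white matter. Of 12 tested genes on the list of the wider superfamily, which includes Fjx1, 6 were higher and 2 lower in SMA, and 6 higher and 1 lower in WT. The 6 were Celsr2, Celsr3, Cdhr1 and the calsyntenins Clstn1, Clstn2 and Clstn3 in both genotypes, and Clstn3 averaged 51.1 ± 9.99 RPKM in SMA motor neurons and 5.07 ± 2.25 RPKM in SMA white matter. Fat1, a giant cadherin, was lower in motor neurons in both, and Fjx1, which is no cadherin but a Golgi kinase acting on Fat and Dachsous proteins, was lower in SMA.

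Of the 9 tested genes that set protocadherin promoter choice, 0 were higher and 4 lower in SMA motor neurons than in SMA white matter, and 0 passed in WT. CTCF (Ctcf), which joins enhancer and chosen promoter with cohesin, averaged 4.95 ± 1.04 RPKM in SMA motor neurons and 17.1 ± 2.32 RPKM in SMA white matter, and the others were Rad21, Stag2 and Wapal. Of 10 tested cytoplasmic partners, Cyfip1 and the kinase gene Fyn were lower in motor neurons in both genotypes, and Cyfip2 was higher in WT. Of 7 cleavage genes, Psen2 was higher and Adam10 lower in SMA, and Ncstn was higher in WT.

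Between genotypes no member passed in either region. In motor neurons 0 of 83 members and 0% of all tested genes passed (limma), 1 member had an unadjusted p under 0.05, where 4.37% of all genes did, and voom on recovered reads called 0 members with 1 at an unadjusted p under 0.05. The member was Cdh20, at 6.34 and 4.07 RPKM in SMA motor neurons against 10.7 and 8.87 RPKM in WT motor neurons. Both SMA libraries were below both WT libraries, with a log2 difference of -0.82 (95% interval -1.54 to -0.10, adjusted p = 1, limma). The next smallest p-values belonged to Pcdhb22, Pcdhb15, Cdh12 and Pcdhb2. Cdh12 was at 11.4 and 7.02 RPKM in SMA motor neurons against 16.6 and 15.1 RPKM in WT motor neurons, a log2 difference of -0.76 with an interval of -1.66 to 0.14, and Pcdhb22 was at 3.19 and 1.65 RPKM against 4.92 and 4.34 RPKM, with -0.75 and an interval of -1.57 to 0.06. Pcdhb2 was above in both SMA libraries, with 0.61 and an interval of -0.23 to 1.46. Of the 83 members, 4 had both SMA libraries above both WT ones and 13 below, where 12.7% and 15.5% of all tested genes did so. Microglia markers summed to 88.6 and 76.6 RPKM in SMA motor neurons against 27.7 and 31.0 RPKM in WT motor neurons. At 1 RPKM or more in both libraries stood 7 of 8 microglia markers in SMA and 4 of 8 in WT. Motor neuron markers summed to 1786 and 1754 RPKM in SMA against 2553 and 2148 RPKM in WT. Interneuron markers summed to 248.9 and 374.7 RPKM in SMA against 218 and 215.5 RPKM in WT. Their part in the member values was not tested.

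The array medians did not separate the genotypes in motor neurons. The median log2 difference was -0.01 over the alpha members, 0.17 over the gamma members and -0.21 over the beta members, beside -0.05 over all tested genes. SMA alpha medians of 38.5 and 19.3 RPKM lay on both sides of the WT medians of 30.3 and 25.4 RPKM. The alpha median turned to 0.03 with median-of-ratios scaling, and was -0.49 without SMA motor neuron replicate 1 and 0.47 without SMA motor neuron replicate 2. Without SMA motor neuron replicate 2 the beta median turned to 0.12, and without WT motor neuron replicate 1 or 2 it was -0.12 or -0.10. The gamma median was 0.28 and 0.05 without SMA motor neuron replicate 1 and 2, and 0.31 and 0.03 without WT motor neuron replicate 1 and 2. The share of Pcdhgc4 reads above the lowest gamma member, 31.7 and 20.9% in SMA motor neurons against 22.7 and 27% in WT motor neurons, overlapped as well.

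In white matter the median log2 difference between SMA and WT over all tested genes was 0.27 as deposited. Of all genes, 39.7% had both SMA libraries above both WT libraries, against 4.17% with both below. Whether this shift came from the scaling or from the captured tissue was not tested. Among the members 0 passed (limma, with 0% of all tested genes). An unadjusted p under 0.05 was reached by 3 members, where 6.31% of all genes did so. Voom called 0 members, with 11 at an unadjusted p under 0.05, where 922 of 13935 genes stood. Of these 11, 8 were gamma members, which share constant exons. Of the 83 members, 45 had both SMA libraries above and 3 below. Cdh13 had the smallest p, at 38.7 and 43.8 RPKM in SMA white matter against 25.0 and 22.8 RPKM in WT white matter, with a log2 difference of 0.76 (95% interval 0.27 to 1.25, adjusted p = 0.727, limma). Cdh22 followed at 2.47 and 1.97 RPKM in SMA white matter against 0.639 and 0.862 RPKM in WT white matter, with 0.88 (interval 0.19 to 1.57), and Cdh2 at 46.7 and 50.3 RPKM against 29.7 and 35.2 RPKM, with 0.57 (interval 0.000786 to 1.14). Next came Pcdhb2 with 0.82 (interval -0.02 to 1.67) and the gamma isoform Pcdhga11 with 0.58 (interval -0.03 to 1.19). Cdh13, Cdh22 and Cdh2 had no overlap between genotypes. Scaled by median of ratios, their differences were 0.44, 0.68 and 0.24 (adjusted p = 1 each). That scaling brought the median of all genes to 0.00, and 0 members then had an unadjusted p under 0.05.

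All 22 gamma members had both SMA white matter libraries above both WT white matter libraries, where 39.7% of all tested genes did so. They share constant exons and most had close values, so the 22 were not counted as separate observations. The gamma median was 125 and 76.4 RPKM in SMA against 65.9 and 66.5 RPKM in WT. Their median log2 difference was 0.56 as deposited and 0.23 with median-of-ratios scaling, and 0 passed. It was 0.21 without SMA white matter replicate 1 and 0.91 without SMA white matter replicate 2, where all 22 had an unadjusted p under 0.05. SMA white matter replicate 1 was far above the other 3 white matter libraries. The alpha members had a median of 0.16 as deposited and -0.09 with median-of-ratios scaling, so their direction turned with the scaling, and it turned to -0.08 without SMA white matter replicate 1 and was 0.39 without replicate 2. Pcdhgc3 reads above the lowest gamma member were 48.9 and 67.5% in SMA white matter against 72.1 and 71.5% in WT white matter, the lowest again in SMA replicate 1. Oligodendrocyte markers summed to 4605 and 2369 RPKM in SMA white matter against 3683 and 1787 RPKM in WT white matter, and fibroblast or meningeal markers to 256 and 166 RPKM against 82.7 and 121 RPKM. Their part in the member values was not tested.

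**Figure D5:**
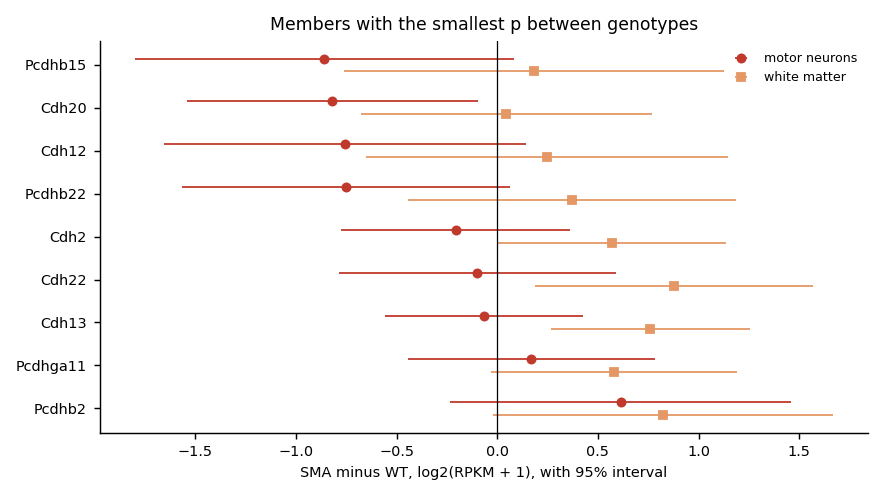
SMA minus WT difference on log2(RPKM + 1) with its 95% interval for the members with the smallest unadjusted p in motor neurons (circles, above) or white matter (squares, below). In motor neurons the interval of Cdh20 alone, among the 9 shown, leaves out 0, whereas in white matter those of Cdh13, Cdh22 and Cdh2 do.

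Averaged over both regions, 0 members passed (limma), 1 had an unadjusted p under 0.05 and voom called 0 with 2 at that level. The member was Pcdhb2, with a log2 difference of 0.72 (95% interval 0.12 to 1.32, adjusted p = 0.774), and 5.99% of all genes reached that level. Cdh13, Pcdhgc3, Pcdhga11 and Pcdhga9 followed with 0.35, 0.35, 0.37 and 0.37, beside a median of 0.11 over all genes. With median-of-ratios scaling these were 0.20, 0.20, 0.23 and 0.23. The SMA effect in motor neurons minus that in white matter passed for 0 members (voom also 0), and 2 had an unadjusted p under 0.05, where 4.97% of all genes did. These were Cdh13 (-0.83 ± 0.31) and Cdh22 (-0.98 ± 0.43), each with an adjusted p of 0.883,, beside a median of -0.33 over all genes, and Pcdhb22, Cdh2 and Cdh20 followed with -1.12, -0.78 and -0.86. Both genes were nearly level between genotypes in motor neurons, at -0.07 and -0.10, with intervals of -0.56 to 0.43 and -0.79 to 0.59.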

How the data were processed

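RNA of 4 groups (SMA and WT motor neurons and white matter, 2 libraries each) was analysed from RPKM values that the authors deposited, 1 table per library with 23278 genes. Per the labels' protocols, cDNA was made with a NuGEN Ovation kit from laser-captured tissue. TopHat, bedtools, DESeq and the genome build mm9 are named per the submitters' processing notes, while their versions, the annotation, the counting rule and strand use were not given in the sources used here. The filter kept genes where at least 2 libraries had 1 RPKM or more (13948 genes), values were taken as log2(RPKM + 1), and 4 group means were fitted over the 8 libraries with limma 3.58.1 in R 4.3.3 (moderated test with trend, two-sided, Benjamini-Hochberg over all genes, threshold 0.05). Adjusted p-values without a named tool come from this fit, and ± is its SE unless SD is given. RPKM values are whole multiples of what 1 read is worth, so reads, gene model lengths and denominators were recovered for 17430 of 17431 genes above 0 in at least 3 libraries (99.994%, tolerance 0.002). Voom on those reads was an alternative, beside median-of-ratios scaling, quantile normalization, pseudocounts of 0.1 and 5 RPKM, filters of 0.3 RPKM and none, no trend, the compared libraries alone, a replicate block and each library left out. The percentages above the lowest array member were computed with Python 3.11.15, numpy 2.4.6, pandas 2.3.3 and scipy 1.17.1, and figures with matplotlib 3.10.9. Constant exons of the arrays were taken from the GENCODE annotation. The fit was checked on simulated data. Members named were those that passed (where over 30 passed, the 15 with the largest difference each way), the 10 with the highest mean, the X-linked Pcdh11x and Pcdh19, and the 5 with the smallest p in each genotype comparison with fewer than 3 passing; others were named after their values were seen. Members and gene lists were chosen with earlier results of these data known. The labels name no animals, so the p-values rest only on the spread between libraries, which may be technical.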

Additional observations from a re-analysis of the deposited data

How the results depend on the processing

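Between motor neurons and white matter in SMA, 48 members passed; 25 passed with the SMA libraries fitted alone, 31 with median-of-ratios scaling (28 higher and 3 lower, against 25 and 23) and 31 without the trend, and leaving out 1 library gave 23 to 56. In WT, 30 passed, 53 with quantile normalization (28 higher and 25 lower, against 28 and 2), and 23 to 36 with 1 library left out. Where a group kept 1 library, that library was assumed to vary like the others. The comparisons of SMA with WT gave 0 members under every alternative run. With the replicate number as a block, 49 members passed in SMA and 28 in WT, and 0 between genotypes; Cdh9 and Pcdhb22 lost their WT call (adjusted p = 0.0568 and 0.052). No label pairs the replicate numbers, and the deviations of same-numbered libraries correlated at -0.34 to 0.08. No result reversed its sign among those that passed. The isoform percentages taken above the second lowest member, an alternative chosen after seeing the data, gave differences of 23.9 points for Pcdhgc4 and -30.9 points for Pcdhgc3. With 2 libraries a group, the SE and intervals rest on a single spread per gene that the 4 groups share. They do not show where a group varied more than another, and they do not give precision over animals.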
